A study of Mus musculus with 12 samples.

Results

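The 10 genes described here, Per1, Per2, Per3, Cry1, Cry2, Clock, Arntl, Dbp, Tef and Nfil3, form the core and the output arm of the circadian clock. They were followed in TM3 cells, an established line of mouse Leydig cells from the testis, grown as untreated cultures or exposed to methoxyacetic acid (MAA). MAA is the active metabolite of the solvent ethylene glycol monomethyl ether and was given at 1 mM or 5 mM for 3, 8 or 24 h. Controls were TM3 cultures kept without MAA and harvested at the matching time. Each of the 6 conditions was compared with its control on 2 two-colour Agilent arrays with exchanged dyes, which makes 12 arrays. Each MAA channel held RNA pooled from 3 cultures, with a separate pool on each array of a pair. The spread between a pair of arrays is thus that between MAA pools and includes the dye, while the control RNA may have been shared. The arrays name their probes by accession, and the members were therefore found by matching accessions to RefSeq symbols. This gave 18 probes for the 10 genes, of 15980 genes with a matched probe in all. Where a gene had several probes, the brightest stands for the gene unless another is named.

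The clock is a loop of transcription. CLOCK and BMAL1, the product of Arntl, bind E-box DNA together and switch on the Period and Cryptochrome genes, whose proteins return to the nucleus and repress that pair. A second loop, through nuclear receptors such as the REV-ERBs, sets the level of Arntl. Dbp and Tef encode PAR bZIP activators that bind D-box DNA, Nfil3 encodes a repressor of the same element, and through them the loop reaches metabolic genes. In the testis, Leydig cells are a cell type in which these genes are known to be expressed.

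The promoters below show the elements that this wiring is known for, read from RefSeq sequence of the GRCm38.p6 build, with 250 bases before and 50 after a RefSeq transcript start. For Per1, Per3 and Arntl the start shown lies inside the gene, downstream of its first annotated base. Entries were held for 9 of the 10 members, 14 in all. Per2 had none, so its promoter was not searched for any of these motifs. Capitals mark CACGTG (an E-box) in Per1 and Tef, TTATGTAA (a D-box) in Per3 and AGGTCA (the core that these receptors bind) in Arntl, searched on both strands. Per1 and Tef are shown because one was called up at 3 h and the other down at 8 h in MAA, Per3 for its pair of D-boxes, and Arntl as the gene of the second loop.
Per1, chr11:69098699-69098998, plus strand: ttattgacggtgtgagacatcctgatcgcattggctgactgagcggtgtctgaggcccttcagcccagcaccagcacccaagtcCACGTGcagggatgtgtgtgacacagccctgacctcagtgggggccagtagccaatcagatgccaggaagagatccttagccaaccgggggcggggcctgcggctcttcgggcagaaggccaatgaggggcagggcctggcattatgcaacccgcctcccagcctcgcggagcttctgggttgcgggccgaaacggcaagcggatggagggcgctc
Tef, chr15:81802423-81802722, plus strand: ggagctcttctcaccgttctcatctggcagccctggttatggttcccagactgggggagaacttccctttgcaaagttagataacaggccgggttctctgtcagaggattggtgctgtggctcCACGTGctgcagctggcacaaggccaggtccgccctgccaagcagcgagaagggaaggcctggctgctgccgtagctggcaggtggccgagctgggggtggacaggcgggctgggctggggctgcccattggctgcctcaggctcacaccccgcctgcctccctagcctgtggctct
Per3, chr4:151044616-151044915, minus strand: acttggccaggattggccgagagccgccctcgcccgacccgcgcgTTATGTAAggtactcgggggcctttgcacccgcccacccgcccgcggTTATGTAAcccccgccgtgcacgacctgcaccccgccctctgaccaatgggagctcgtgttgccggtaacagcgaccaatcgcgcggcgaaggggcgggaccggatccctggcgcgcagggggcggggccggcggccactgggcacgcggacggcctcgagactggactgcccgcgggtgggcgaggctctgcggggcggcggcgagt
Arntl, chr7:113207261-113207560, plus strand: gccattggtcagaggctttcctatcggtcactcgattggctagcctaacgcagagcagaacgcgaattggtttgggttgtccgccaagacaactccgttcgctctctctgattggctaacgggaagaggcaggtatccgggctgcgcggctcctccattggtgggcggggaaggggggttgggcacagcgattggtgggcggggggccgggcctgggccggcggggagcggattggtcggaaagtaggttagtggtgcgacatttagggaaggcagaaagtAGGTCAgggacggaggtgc
CACGTG was in an entry of 3 members, Per1, Cry1 and Tef, and in 7.15% of all 32851 promoters. CACGTT, a related E-box form, was in 2 members, Cry1 and Cry2, and in 4.68% of promoters. TTATGTAA occurred at positions -205 and -158 of the Per3 promoter and in 0.938% of promoters, while AGGTCA was in 4 members, Per1, Clock, Arntl and Nfil3, and in 16.3%. A member was counted if any of its entries held the letters, while each share counts single promoters, so the measures differ. The other Per1 entry held neither CACGTG nor AGGTCA, and the other Arntl and Clock entries held no AGGTCA. No match of one motif overlapped a match of another in a member. A match describes these letters in this window and is no measured site.

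The oligos shown next read Dbp and Arntl, which were called in opposite directions at 8 h. They were each 60 bases long, with 33 and 27 G or C bases, and are shown as the study lists them.
Dbp probe A_51_P180492: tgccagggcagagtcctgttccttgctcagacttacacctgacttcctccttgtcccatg
Arntl probe A_52_P267651: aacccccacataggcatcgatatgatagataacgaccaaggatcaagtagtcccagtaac
They are shown because the search of the study's lists found no sequence for the other members' oligos.

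On the 12 arrays, between 61.5% and 70.5% of probes were well above background in the control channel. Of 9 Leydig cell genes looked for, 3 were above background in all 12 control channels (Star, Cyp17a1 and Insl3) and 4 in none (Cyp11a1, Hsd3b1, Hsd3b6 and Lhcgr). These last are defining steroidogenic enzymes and the LH receptor, so those markers of the labelled cell type were not detected above background. Genes of mesenchyme were above background in all 12 for 4 of 5, those of macrophages for 0 of 3 and those of endothelium for 0 of 4, while 2 of 6 Sertoli cell, 3 of 7 germ cell and 2 of 4 myoid cell genes were above background in all 12. The arrays of a pair correlated at 0.496 to 0.644 over all probes at 5 mM and at -0.134 to 0.309 at 1 mM. Over probes above background in at least 1 channel of both arrays, the values were 0.690 to 0.836 and 0.154 to 0.595. Nearly all member probes had usable signal: 16 of the 18 were well above background in all 12 control channels, the exceptions being Per3 (10 of 12) and the dimmer Cry2 probe (5 of 12).

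At 5 mM for 3 h, 4 of the 5 Period and Cryptochrome genes and Arntl were called up in the MAA-treated cells. Among these, Per3 was called with its control signal not well above background. A probe was called changed where limma gave a p below 0.005 and the fold exceeded 2 at 5 mM or 1.5 at 1 mM, a rule that called 3.76% of all probes at 5 mM for 3 h (2.02% up and 1.74% down). Of the 10 members, 5 were called up there (Per1, Per2, Per3, Cry2 and Arntl) and none down, and 8 had an unadjusted p below 0.05, as did 32.9% of all probes. Leaving out any 1 array gave 3 to 4 member probes up in place of 5, and normexp background correction with loess gave 1, with Per1, Cry2 and Arntl just under 2-fold. The median log2 ratio of the 10 was 0.90, beside -0.10 for all probes.

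Per1, a light- and hormone-inducible Period gene, had log2 ratios of 1.06 and 1.09 on the arrays of 5 mM for 3 h, a 2.11-fold rise (log2 ratio 1.08 ± 0.06, SE, n = 2 arrays, adjusted p = 3.93e-05 by limma). Its ratios were -0.36 and -0.23 at 8 h and 0.12 and 0.21 at 24 h. At 1 mM they were 0.08 and 0.07 at 3 h, -0.47 and -0.39 at 8 h, and -0.03 and 0.07 at 24 h. The pair of arrays at 5 mM for 3 h therefore stood above the other 10 arrays by more than any spread within a pair, and no other condition was called. The values at 8 h lay below 0 on all 4 arrays, at -0.29 ± 0.06 with 5 mM (adjusted p = 0.00839 by limma) and -0.43 ± 0.06 with 1 mM (adjusted p = 0.0106), which is under the fold needed for a call.

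Per2, the Period gene most tightly bound to the loop, was called up at 3 h and 24 h of 5 mM and lay below 0 between. Its brighter probe, A_51_P282760, read 1.36 and 1.29 at 3 h of 5 mM MAA, -0.60 and -0.53 at 8 h, and 1.35 and 1.40 at 24 h. With 1 mM the readings were 0.24 and 0.21 at 3 h, -0.34 and -0.48 at 8 h, and 0.71 and 0.73 at 24 h. The 3 h and 24 h values at 5 mM and the 24 h value at 1 mM were called, at 2.51-fold, 2.59-fold and 1.65-fold (adjusted p = 1.86e-05, 1.19e-05 and 0.000712 by limma). At 5 mM for 24 h, where 5.62% of all probes were called (3.85% up, 1.77% down), Per2 was the only member called, and the same held at 1 mM for 24 h, where 4.68% were (3.26% up, 1.41% down). The dimmer Per2 probe, A_52_P536869, was not called in any condition, and at 5 mM it read -0.12 ± 0.13 at 3 h and -0.22 ± 0.13 at 24 h, so the brighter and the dimmer probe disagreed there.

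Per3 was near the lower limit of the arrays. At 5 mM for 3 h its processed MAA signal was 19.2 and 25.0, and its control signal was 11.5 and 2.91, neither of them well above background. The log2 ratios were 0.74 and 3.11. The fit called the gene (adjusted p = 0.0209 by limma), but the control was not well above background. With the control raised to the lowest signal well above background where it lay under it, Per3 was 1.69-fold higher in MAA-treated cells on these processed signals. Normexp with loess gave a log2 ratio of 0.26, which is smaller, so 1.69-fold is no firm lower bound. On the scaled log2 channel levels described below, the control channels at 3 h ran from 2.05 to 6.07. The MAA levels at 5 mM for 3 h, 4.26 and 5.16, lay within that range. Both channels were above background on all arrays at 8 and 24 h, where Per3 read -0.42 and -0.64 at 5 mM for 8 h and 0.76 and 1.18 at 5 mM for 24 h, neither called. The call at 3 h held in 1 of the 12 fits that left out an array, and its log2 ratio was 0.74 without replicate 2 and 3.11 without replicate 1.

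The cryptochromes, which are the partners of the Period proteins, were highest at 3 h of 5 mM. Cry2 (probe A_52_P248378) read 0.99 and 1.08 at 3 h, a 2.05-fold rise (1.03 ± 0.10, adjusted p = 0.000311 by limma), then 0.21 and 0.41 at 8 h and 0.23 and 0.55 at 24 h. Its arrays at 1 mM read 0.01 and 0.11 at 3 h, -0.45 and -0.23 at 8 h and 0.09 and 0.21 at 24 h. Cry1 (probe A_52_P420500) read 0.91 and 0.63 at 5 mM for 3 h, a 1.71-fold difference that is below the fold needed (0.77 ± 0.14, adjusted p = 0.00636). Its second probe gave 0.54 and 0.54 there (adjusted p = 0.000546), and both probes lay between -0.19 and -0.43 at 1 mM for 8 h. Cry2 sat close to the 2-fold line, and without replicate 2 of 5 mM for 3 h its log2 ratio of 0.99 was no longer past it.

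**Figure D1:**
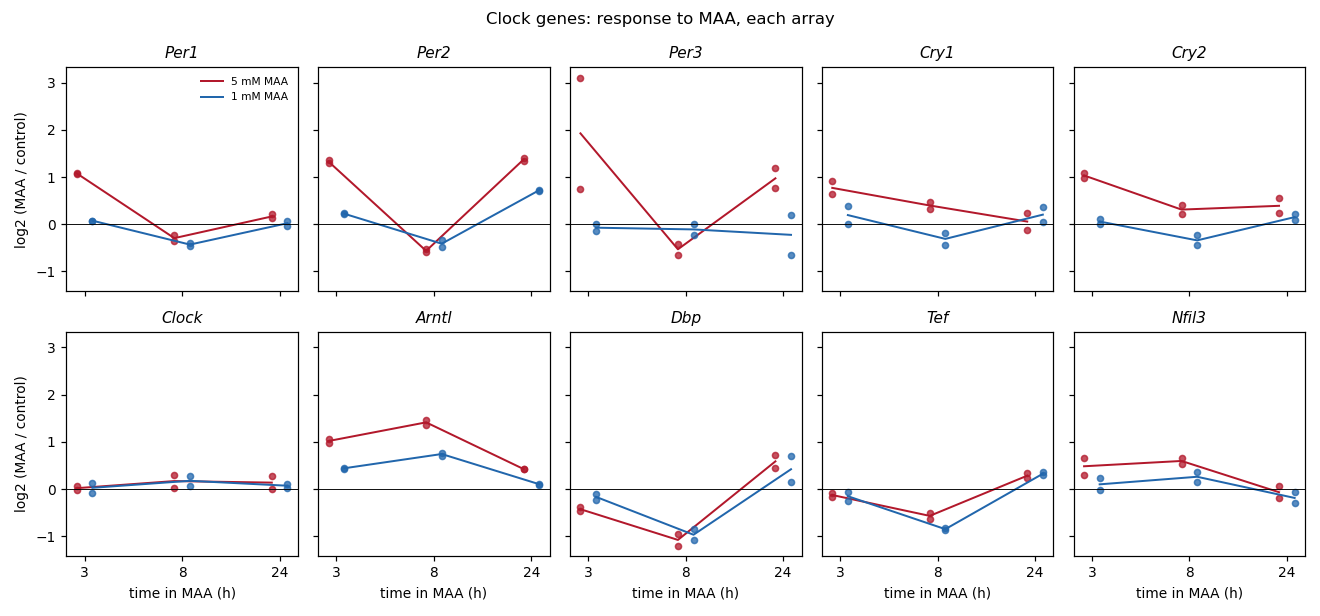
Log2 ratio of MAA over control for the 10 clock genes, brightest probe, against time in MAA (h, evenly spaced and not to scale). Points are single arrays (2 a condition) and lines join their means, red for 5 mM and blue for 1 mM. Per1, Per2, Cry2 and Arntl lie near or above 1 at 5 mM for 3 h, Dbp and Tef dip at 8 h with both concentrations, and Clock stays within 0.31 of 0 on all 12 arrays.

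Of the activator pair, Arntl was called up and Clock was not called in any condition. Arntl (probe A_52_P267651, shown above) read 1.07 and 0.97 at 5 mM for 3 h, 1.37 and 1.46 at 8 h, and 0.43 and 0.42 at 24 h. With 1 mM it read 0.45 and 0.44 at 3 h, 0.78 and 0.71 at 8 h, and 0.09 and 0.12 at 24 h. All 12 arrays were thus above 0, both concentrations were highest at 8 h, and 5 mM was above 1 mM at each time. In limma contrasts the concentration difference at 24 h (0.32 ± 0.08, adjusted p = 0.0518) did not pass 0.05. Nor did 8 h minus 3 h at 1 mM (0.30 ± 0.08, adjusted p = 0.302). The calls were 2.03-fold at 5 mM for 3 h, 2.67-fold at 5 mM for 8 h and 1.67-fold at 1 mM for 8 h (adjusted p = 3.68e-05, 9.46e-06 and 0.00149 by limma). Arntl was the only member called up at 8 h, with 5.55% of all probes called at 5 mM (3.06% up, 2.49% down) and 2.37% at 1 mM. Without replicate 1 of 5 mM for 3 h, its log2 ratio of 0.97 there was just under the 2-fold line. Clock had no called value on any of its 3 probes. The brightest read between -0.08 and 0.31 over the 12 arrays, and its 6 condition means lay between 0.02 ± 0.11 and 0.18 ± 0.11.

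The D-box activators Dbp and Tef were lower in MAA at 8 h, Dbp called with both concentrations and Tef with 1 mM. Dbp (probe A_51_P180492) read -1.20 and -0.96 at 5 mM for 8 h, a 2.11-fold fall (-1.08 ± 0.14, adjusted p = 0.000795 by limma), and -1.08 and -0.85 at 1 mM for 8 h, a 1.95-fold fall (-0.97 ± 0.14, adjusted p = 0.0104). At 3 h it read -0.46 and -0.38 with 5 mM and -0.23 and -0.10 with 1 mM. At 24 h all 4 arrays were above 0, at 0.46 and 0.72 with 5 mM and 0.15 and 0.69 with 1 mM, none called. The call at 5 mM for 8 h was lost without replicate 1 there, when the log2 ratio was -0.96.

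For Tef, the brightest probe, A_52_P485573, read -0.50 and -0.63 at 5 mM for 8 h and -0.82 and -0.87 at 1 mM for 8 h, and the second was called, at 1.80-fold down (adjusted p = 0.00174 by limma). Both other Tef probes were also called down at 1 mM for 8 h, at -0.79 ± 0.10 and -1.05 ± 0.23. The brightest probe was at 0.34 and 0.23 at 5 mM for 24 h and at 0.36 and 0.29 at 1 mM for 24 h. The dimmest Tef probe gave 0.06 ± 0.23 at 5 mM for 24 h. Nfil3, the repressor of the same element, was on the other side of 0: it read 0.66 and 0.31 at 5 mM for 3 h and 0.65 and 0.54 at 5 mM for 8 h (0.60 ± 0.12, adjusted p = 0.00718), under the 2-fold line. At 24 h Nfil3 read 0.06 and -0.19 with 5 mM and -0.07 and -0.30 with 1 mM. No Nfil3 value was called on either of its probes.

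At 1 mM for 8 h, counting all 18 probes, 1 was called up (Arntl) and 4 down (Dbp and the 3 Tef probes). Over all probes 1.72% were called up and 0.656% down there. At 1 mM for 3 h no member probe was called, where 1.95% of all probes were (1.32% up, 0.627% down), and 3 of the 18 (16.7%) had an unadjusted p below 0.05, beside 16.8% of all probes. At 5 mM for 8 h 1 member was called up and 1 down, and at each concentration for 24 h 1 of the 10 was up and none down.

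**Figure D2:**
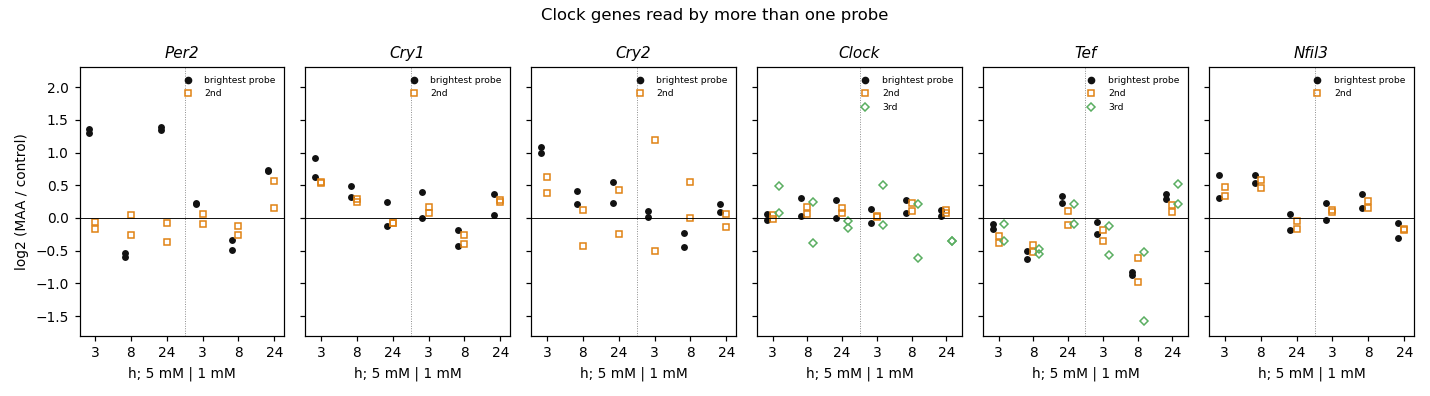
Log2 ratio of MAA over control for the 6 clock genes with several probes, by condition (3, 8 and 24 h, 5 mM left of the dotted line and 1 mM right). Each point is 1 array, black circles for the brightest probe, orange squares for the next and green diamonds for the third. The probes of Cry1, Tef and Nfil3 have like signs at 8 h, the Clock probes scatter around 0, and the dimmer Per2 probe stays near 0 where the brighter one reads over 1.2.

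The response to 5 mM MAA differed between times for 6 of the 10 genes by their brightest probes (limma contrast of 2 conditions, adjusted p below 0.05 over all probes). From 3 h to 8 h, where 5.1% of all probes passed, the response of 5 members differed. The log2 difference, 8 h minus 3 h, was -1.37 ± 0.09 for Per1 and -1.89 ± 0.08 for Per2 (adjusted p = 0.0014 and 0.00123), -0.72 ± 0.14 for Cry2, -0.44 ± 0.10 for Tef and 0.39 ± 0.08 for Arntl. Of 12 fits that left out an array, Cry2 passed in 2 and Tef and Arntl in 0. From 8 h to 24 h, where 8.91% passed, Per2 gained 1.93 ± 0.08, Dbp 1.66 ± 0.19 and Tef 0.85 ± 0.10, while Arntl fell by 0.99 ± 0.08 (adjusted p = 0.000404, 0.00382, 0.00376 and 0.00139). Per1 also passed there, with a gain of 0.46 ± 0.09, in 8 of the 12 fits that left out an array. Between 3 h and 24 h, where 15.8% passed, 2 members gained (Dbp and Tef) and 3 fell (Per1, Cry2 and Arntl), whereas the Per2 response differed by 0.05 ± 0.08 (adjusted p = 0.751). Of the 12 fits that left out an array, Cry2 and Dbp passed in 9 and Tef in 4. The second probes of Cry1 and Nfil3 also passed, at -0.35 ± 0.08 and -0.62 ± 0.09 from 8 h to 24 h and at -0.62 ± 0.08 and -0.51 ± 0.09 from 3 h to 24 h, where their brightest probes had the same sign and did not pass.

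With 1 mM fewer differences passed, which does not test the concentrations against each other. No probe of the array passed between 3 h and 8 h (limma, 0% of all probes), and 9 of the 18 member probes had an unadjusted p below 0.05 there, beside 8.59% of all probes. Between 8 h and 24 h, where 0.576% of all probes passed, 4 members did: Per2 gained 1.13 ± 0.08, Dbp 1.39 ± 0.19 and Tef 1.17 ± 0.10, and Arntl fell by 0.64 ± 0.08 (adjusted p = 0.00556, 0.0372, 0.00833 and 0.0278). No member probe passed when any array of 1 mM at 8 h or 24 h was left out. Over all 12 such fits Per2 and Tef passed in 8, Arntl in 2 and Dbp in 0. The second probes of Cry1 and Tef also passed, at 0.59 ± 0.08 and 0.94 ± 0.14. Between 3 h and 24 h, where 1.85% passed, Per2 alone did, with 0.50 ± 0.08, and it passed in 0 of the 12 fits that left out an array.

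The concentrations were compared at each time. At 3 h, where 3.4% of all probes differed between 5 mM and 1 mM, the response was larger at 5 mM by 1.00 ± 0.09 for Per1, 1.10 ± 0.08 for Per2, 0.98 ± 0.14 for Cry2 and 0.58 ± 0.08 for Arntl (adjusted p = 0.00531, 0.00506, 0.0175 and 0.0157 by limma). At 8 h, where 10.1% differed, Arntl was larger by 0.67 ± 0.08 and Cry2 by 0.65 ± 0.14. At 24 h, where 8.41% differed, Per2 was larger by 0.65 ± 0.08 (adjusted p = 0.00519). The second Cry1 probe also passed, at 0.42 ± 0.08 at 3 h, 0.60 ± 0.08 at 8 h and -0.34 ± 0.08 at 24 h. Of the 12 fits that left out an array, Cry2 passed in 8 at 3 h and 6 at 8 h, and Arntl in 8 at 3 h. For Dbp and Tef no difference between the concentrations passed at any time, and at 8 h the differences were -0.11 ± 0.19 for Dbp and 0.28 ± 0.10 for Tef. Both concentrations of a time may have been measured against the same control RNA.

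The control channels gave the course of the same genes in untreated cells. Levels here are log2 channel levels after scaling the 12 arrays to one distribution of mean signal, with 4 control channels a time. By its brighter probe, untreated Per2 rose from 7.68 ± 0.04 (SD, n = 4) at 3 h to 8.18 ± 0.08 at 8 h and 8.63 ± 0.06 at 24 h, and the groups of 4 did not overlap. Its dimmer probe went the other way. That probe differed by -0.45 ± 0.12 (SE) from 3 h to 8 h and by -0.69 ± 0.12 from 3 h to 24 h (adjusted p = 0.00746 and 0.000122 by limma). Untreated Per1 went from 9.41 ± 0.09 to 9.87 ± 0.08 and 10.07 ± 0.06. Untreated Cry1 dropped from 10.24 ± 0.13 at 3 h to 9.28 ± 0.08 at 8 h and was 9.42 ± 0.07 at 24 h. Untreated Arntl was lowest at 8 h, at 10.07 ± 0.07 between 10.36 ± 0.05 and 10.50 ± 0.06, and untreated Dbp went from 10.47 ± 0.09 to 10.96 ± 0.08 and stayed at 10.96 ± 0.10.

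In the test of these control levels over time 7 of the 10 members passed between 3 h and 8 h, 6 between 8 h and 24 h and 9 between 3 h and 24 h, all but Clock, by their brightest probes. The second Clock probe passed from 3 h to 8 h (-0.17 ± 0.03) and from 3 h to 24 h (-0.15 ± 0.03). Other dimmer probes differed from the brightest. From 3 h to 24 h the dimmer Tef probes did not pass, at -0.02 ± 0.09 and -0.03 ± 0.15, beside 0.47 ± 0.06 for the brightest. There the dimmer Cry2 probe did not pass either, and the dimmer Per2 probe passed in the opposite direction. The second Cry1 and Nfil3 probes passed from 3 h to 24 h with the sign of the brightest. The Per3 difference passed in 7 of the 12 fits that left out an array from 3 h to 8 h and in 1 from 3 h to 24 h. That test passed 38%, 37.1% and 47.9% of all probes. The 4 control channels of a time may share RNA, which makes these p-values too small. As an alternative, which changes both at once, the channels were averaged by replicate number and the replicate number was added as a block. There 5 of the 18 member probes passed between 3 h and 8 h and 2 between 8 h and 24 h, in place of 11 and 7. The share of all probes that passed in this alternative is not given here. The differences of the brighter Per2 probe still passed.

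**Figure D3:**
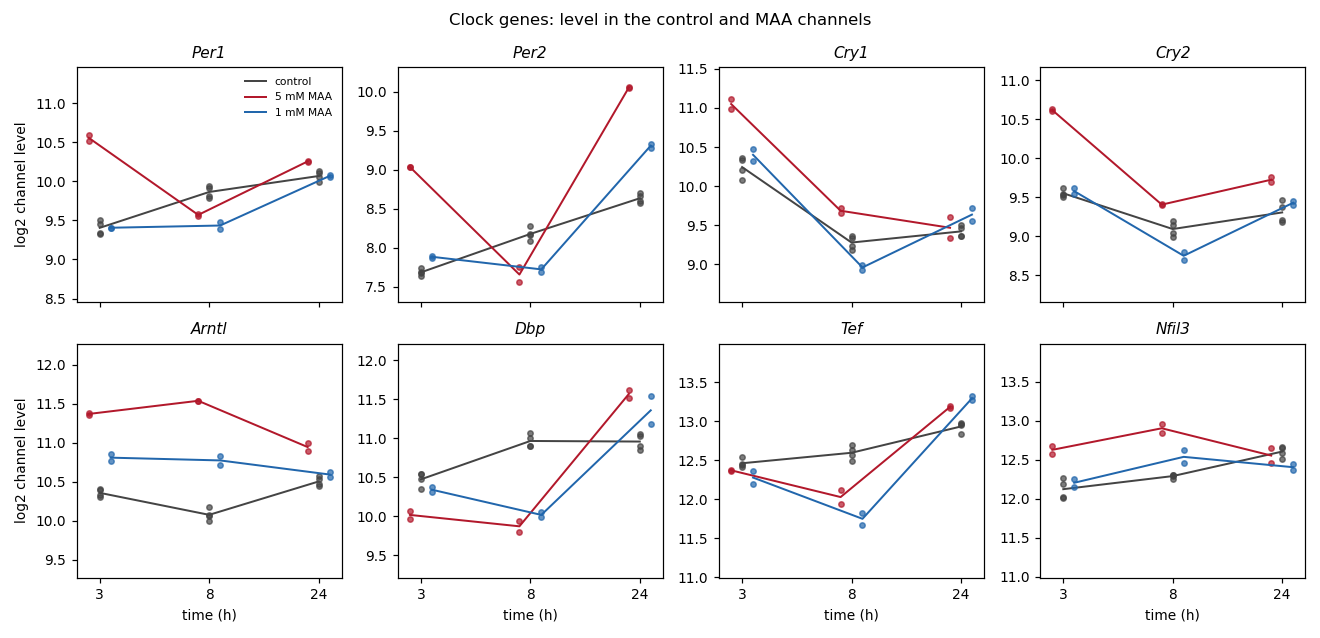
Log2 channel level of 8 clock genes, brightest probe, against time (h, evenly spaced), grey for control, red for 5 mM and blue for 1 mM MAA. Points are single channels (4 control, 2 MAA) and lines join means, and each panel spans 3 log2 units. Untreated Per1 and Per2 rise over 24 h, Dbp and Tef in MAA-treated cells lie below the control at 8 h and above it at 24 h, and Arntl at 5 mM lies above the control at each time.

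The MAA channels gave the course in treated cells. At 5 mM, the brighter Per2 probe stood at 9.03 at 3 h, 7.66 at 8 h and 10.05 at 24 h, a fall of 1.38 ± 0.06 and then a rise of 2.40 ± 0.06 on the log2 scale (adjusted p = 7.21e-11 and 8.11e-14 by limma). The dimmer Per2 probe did not pass over either interval at 5 mM, at -0.37 ± 0.17 and -0.35 ± 0.17. Of the 10 members, 6 differed between 3 h and 8 h and 7 between 8 h and 24 h, where the test passed 32.7% and 35% of all probes. Dbp did not pass between 3 h and 8 h at 5 mM (-0.15 ± 0.11, adjusted p = 0.363), and then rose by 1.69 ± 0.11, while untreated Dbp rose by 0.49 ± 0.08 between 3 h and 8 h. Arntl did not pass over that first interval at 5 mM (0.16 ± 0.06) or at 1 mM (-0.02 ± 0.06), while untreated Arntl differed by -0.28 ± 0.04. Cry1 fell between 3 h and 8 h in every arm, by 0.97 ± 0.08 in the control, 1.36 ± 0.11 at 5 mM and 1.45 ± 0.11 at 1 mM. At 1 mM, the brightest Tef probe fell by 0.54 ± 0.08 between 3 h and 8 h and rose by 1.54 ± 0.08 between 8 h and 24 h. The brighter Per2 probe rose by 1.59 ± 0.06 over the second interval, where the dimmer one did not pass (0.31 ± 0.17). The 1 mM test passed 28% and 31.9% of all probes over those intervals. Between 3 h and 24 h it passed 44.3% at 5 mM and 41.1% at 1 mM, and 7 and 6 of the members.

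The rest of the clock network was read from 31 further listed genes with a probe. Called up or down were 2 and 2 of the 31 at 5 mM for 3 h, 3 and 1 at 8 h, 2 and 1 at 24 h, and at 1 mM 1 and 0 at 3 h, 0 and 2 at 8 h and 3 and 0 at 24 h. Over all probes the shares up and down at 5 mM were 2.02% and 1.74%, 3.06% and 2.49%, and 3.85% and 1.77%. At 1 mM they were 1.32% and 0.627%, 1.72% and 0.656%, and 3.26% and 1.41%, in the same order of times. Nr1d2 (REV-ERB beta), which represses Arntl, read -0.62 and -0.63 at 5 mM for 3 h, -0.82 and -0.75 at 8 h, and -0.71 and -0.66 at 1 mM for 8 h, of which the last was called, at 1.61-fold down. At 24 h it read 0.34 and 0.30 with 5 mM and 0.42 and 0.42 with 1 mM. Nr1d1 (REV-ERB alpha) was called up at 1 mM for 24 h, at 1.60-fold, and read 0.81 and 1.18 at 5 mM for 24 h, where its 1.99-fold ratio was just under the limit. Its dimmer probe gave -0.11 ± 0.21 at 5 mM for 24 h and 0.30 ± 0.21 at 1 mM for 24 h, neither called.

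Hlf, the third PAR bZIP gene, read -0.36 and -0.44 at 5 mM for 3 h, then 0.96 and 1.13 at 8 h and 1.02 and 1.20 at 24 h. It was called up at 8 and 24 h with 5 mM and at 24 h with 1 mM, and so lay above 0 at 8 h, where Dbp and Tef lay below it. Bhlhe41, an E-box repressor (DEC2), was called down at 8 h with both concentrations, at 2.28-fold and 1.62-fold, by the one of its probes that was above background. Its relative Bhlhe40 read -0.70 and -0.67 at 5 mM for 3 h and -1.03 and -0.77 at 8 h and was not called. Usp2, a rhythmic deubiquitinase, was called up at all 3 times of 5 mM (2.88-fold, 2.58-fold and 2.11-fold) and at 3 h and 24 h of 1 mM, and Noct, which encodes nocturnin, at 3 h and 8 h of 5 mM (2.38-fold and 2.40-fold). Timeless was called down at 5 mM for 3 h (2.08-fold) and, by its second probe, at 1 mM for 24 h. Sirt1, a deacetylase that acts on clock proteins, was called down at 5 mM for 3 h and 24 h (2.12-fold and 2.32-fold), and its second probe was called at 24 h but not at 3 h. Rora and Arntl2 were not called in any condition, nor was Npas2, the relative of Clock, which was above background on none of the arrays.

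**Figure D4:**
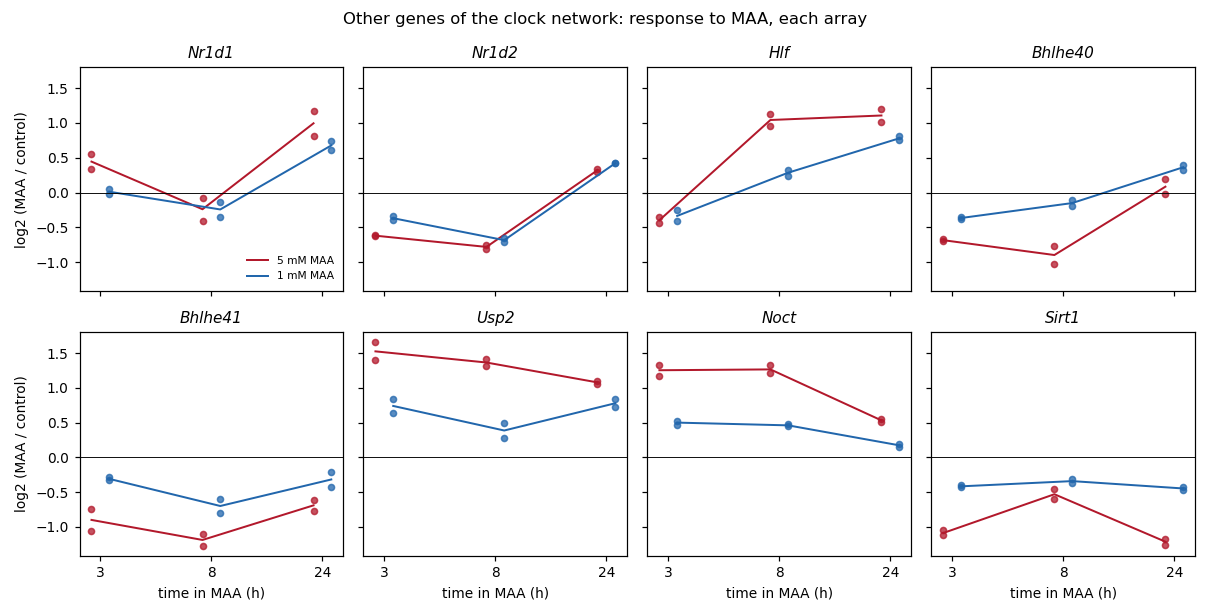
Log2 ratio of MAA over control against time in MAA (h, evenly spaced) for 8 further genes of the clock network. Points are single arrays (2 a condition) and lines join means, red for 5 mM and blue for 1 mM. Nr1d1 and Nr1d2 are below 0 at 8 h and above 0 at 24 h, Hlf is below 0 at 3 h and above it later, Usp2 and Noct are above 0 and Sirt1 is below 0 in every condition.

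Among themselves the members fell into patterns over the 12 arrays, which share dyes and may share control RNA, so these values only describe. The log2 ratio of Dbp correlated with that of Tef at Pearson's r = 0.90 and with that of Arntl at -0.79, and Arntl with Nfil3 at 0.90. Per1 correlated with Cry2 at 0.89 and with Arntl at 0.04. Of 15037 named probes above background on all arrays, the 3 genes most like each called member were Lyst, Plekhh3 and Zbed5 for Per1 (r = 0.97, 0.97 and 0.94), Trit1, Rassf8 and Fam110c for Per2 (0.97, 0.96 and 0.95), Acap3, Zfp78 and Tor3a for Cry2 (0.97, 0.95 and 0.95), and Zcchc17, Thbs1 and Cdkn2aipnl for Arntl (0.98, 0.96 and 0.96). For Dbp they were Lgals8, Ces1g and Lypla1 (0.96, 0.94 and 0.94), for Tef Atp1b1, Mrpl9 and Lypla1 (0.95, 0.94 and 0.93), and for Per3, which was dim, 9130008F23Rik, Jarid2 and Pik3r1 (0.92, 0.87 and 0.86).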

How the data were processed

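RNA of MAA-treated and control TM3 cells was hybridised by the authors to 12 two-colour arrays with exchanged dyes and read with Agilent Feature Extraction 9.5.3.1, and the deposited intensity values are its background-subtracted, dye-normalized processed signals. The deposited value table holds log10 ratios of MAA over control. Other columns hold flags for outliers and signal above background. Control spots (1639 of 45018) and outlier spots (a median of 136 an array) were left out and repeated spots averaged, giving 41174 probes. Symbols came through accessions for 22072 of 22082 named probes. Log2 ratios went into 1 limma model (version 3.58.1 in R 4.3.3) over all arrays with 6 conditions and 6 residual degrees of freedom, adjusted by Benjamini-Hochberg over all probes. Channel levels were scaled with Aquantile and fitted with lmscFit over 41016 probes. Text names all 10 members, the listed clock network genes that were called or feed back directly, and the 3 most similar genes. Members and lists were chosen with earlier results of these data known. Code was tested on simulated data. Alternatives were another background correction, the deposited ratios, centring, filters, blocks, other thresholds, other channel scalings and each array left out. With 2 arrays a condition, precision is limited by their number. Some listed genes are not reported here and were left out of the counts.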

Additional observations from a re-analysis of the deposited data

Results flagged for a closer look

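Of 54 groups of 4 control channels tested over the member probes, 2 held a channel far from the other 3, and chance flags about 1 in 20 such groups. They were the dim Cry2 probe at 3 h, with a lowest log2 level of 2.29, and the brightest Tef probe at 24 h, with a lowest of 12.84 beside a group mean of 12.93.

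Of 90 differences in response between conditions over the 10 members, 27 passed limma's adjusted p of 0.05. Over all probes, between 0% and 15.8% passed, depending on the pair of conditions compared. At 5 mM, 8 h minus 3 h was -1.37 for Per1, -1.89 for Per2, -0.72 for Cry2, 0.39 for Arntl and -0.44 for Tef. At 5 mM, 24 h minus 8 h was 0.46 for Per1, 1.93 for Per2, -0.99 for Arntl, 1.66 for Dbp and 0.85 for Tef. At 5 mM, 24 h minus 3 h was -0.91 for Per1, -0.64 for Cry2, -0.59 for Arntl, 1.01 for Dbp and 0.41 for Tef. At 1 mM, 24 h minus 8 h was 1.13 for Per2, -0.64 for Arntl, 1.39 for Dbp and 1.17 for Tef, and 24 h minus 3 h was 0.50 for Per2. The response at 5 mM minus that at 1 mM was 1.00 for Per1, 1.10 for Per2, 0.98 for Cry2 and 0.58 for Arntl at 3 h, 0.65 for Cry2 and 0.67 for Arntl at 8 h, and 0.65 for Per2 at 24 h. Of the 27, 12 stayed past the threshold whichever of the 12 arrays was left out: Per1 and Per2 from 3 h to 8 h, Per2, Arntl, Dbp and Tef from 8 h to 24 h and Per1 and Arntl from 3 h to 24 h, all at 5 mM, and the concentration differences of Per1 and Per2 at 3 h, Arntl at 8 h and Per2 at 24 h.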

How the results depend on the processing

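No called value of a member changed sign under any alternative run, and of 4050 recomputed member values 3791 kept their side of the threshold, 187 lost it and 72 gained it. Normexp background correction with loess gave 1 member probe up at 5 mM for 3 h in place of 5, since Per1, Cry2 and Arntl came to 1.00, 0.96 and 0.98 on the log2 scale, just under 2-fold, and Per3 to 0.26. It also gave 2 down at 1 mM for 8 h in place of 4, 0 up at 1 mM for 24 h in place of 1, 1 and 0 response differences at 1 mM from 3 h to 8 h and to 24 h in place of 0 and 1, and 6 level differences at 1 mM from 3 h to 24 h in place of 10. With an adjusted p below 0.05 and no fold limit, the calls up and down at 5 mM were 9 up at 3 h, 4 up and 5 down at 8 h and 5 up at 24 h. At 1 mM they were 1 up at 3 h, 1 up (Arntl) and 7 down at 8 h and 3 up at 24 h. The share of all probes past this looser limit is not given here. With the slide as a block, response differences at 1 mM numbered 2 from 8 h to 24 h and 2 from 3 h to 24 h, and 5 between concentrations at 8 h. The share of all probes with that block is not given here.

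The replicate number also marks the dye orientation. Deviations of same-numbered arrays correlated between 0.0748 and 0.515 (median 0.375) over 15 pairs, not all above 0.1, so the numbers were not taken to pair the samples. A replicate block gave 3, 10 and 4 response differences at 1 mM (3 h to 8 h, 8 h to 24 h and 3 h to 24 h) in place of 0, 6 and 1, and 7 in place of 3 between concentrations at 8 h. Control levels averaged by replicate number, with the replicate block, gave 5 and 2 in place of 11 and 7. Shares of all probes under these alternatives are not given here, so these counts do not single out the members.

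Leaving out each array in turn gave 3 to 4 probes up at 5 mM for 3 h, 0 to 1 down at 5 mM for 8 h and 1 to 2 up at 1 mM for 24 h. Response differences ranged over 2 to 3, 4 to 7 and 4 to 7 at 5 mM (3 h to 8 h, 8 h to 24 h, 3 h to 24 h), 0 to 3 and 0 to 0 at 1 mM (8 h to 24 h, 3 h to 24 h), and 2 to 4, 1 to 3 and 1 to 1 between concentrations at 3, 8 and 24 h. Level differences ranged over 6 to 10 at 1 mM, from 3 h to 24 h and from 3 h to 8 h. Arrays carry no counting depth, and signal near background limits Per3 and the dimmer Cry2 and Per2 probes.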
